A study of Homo sapiens with 19 samples.

Results

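Among 19 arrays of the human breast cancer line MDA-MB-231 and its derivatives, 6 are described here: the hyper-ploid and the modal-ploid subline of line 4175, taken by their sample titles, and the 4 arrays titled as strongly lung-metastatic lines. The series asks how a spontaneous doubling of ploidy bears on metastasis, and each line was measured on 1 Affymetrix expression array. The 2 sublines of 4175 form one group, and lines 4142, 4173, 4175 and 4180 form the other, called the strong lung lines below. Line 4175, cultured briefly, is itself 1 of the strong lung lines and is also the origin of both sublines. No line or subline has another array, so each p-value below rests on the spread between arrays within groups. For the metastatic lines this is spread between lines. The 2 sublines share 1 origin but were treated as independent in the main fit. The cells of all 6 were grown in the same medium with serum and drug selection and harvested before confluence, and no treatment was compared.

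MDA-MB-231 is a mesenchymal-like breast cancer line that lacks the oestrogen and progesterone receptors. Derivatives that colonise the lung of mice carry a set of raised genes that includes the collagenase MMP1, the matrix protein SPARC, the decoy receptor IL13RA2 and the adhesion molecule VCAM1. A hyper-ploid cell holds more chromosome sets than the modal cell of its line, and its gene expression can be compared on arrays only relative to the rest of its own RNA.

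The deposited value is a ratio of an array's signal to 1 divisor per probe set, which is shared by the 2 subline arrays, the 4 strong lung arrays and the 3 weakly lung-metastatic arrays. A difference of log2 ratios within these 9 arrays is therefore a difference of log2 signals. Levels are given below as scaled signals, the ratio multiplied back by that divisor, with array medians between 147.0 and 147.6. A gene is called dim on an array where its scaled signal is at or below that array's 40th percentile, which lies between 77.7 and 95.6 on the 6 arrays.

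Markers of the cell line were set against those of other cell types. CD44 had scaled signals of 6877 to 7214 in the sublines and 6084 to 7795 in the strong lung lines, and KRT18, a keratin of simple epithelia, had 6602 to 8930 in the sublines and 8264 to 10557 in the strong lung lines. The progesterone receptor PGR, the leukocyte marker PTPRC, the endothelial cadherin CDH5, the liver protein ALB and the epithelial cadherin CDH1 were dim on all 6 arrays. The oestrogen receptor ESR1 lay just above the dim range, at 95.5 to 139.6 in the sublines and 132 to 153 in the strong lung lines. The epithelial marker EPCAM (107 to 205 in the sublines, 241 to 364 in the strong lung lines) and HBB, a red blood cell marker (98.1 to 170 and 213 to 267), were not dim on any array. Of 21 leukocyte markers on the array, 7 were above the 40th percentile on both sublines and 8 on all 4 strong lung lines. These counts were 5 and 5 of 20 endothelial and stromal markers, 1 and 2 of 8 red blood cell and liver markers, and 6 and 7 of 12 luminal markers.

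The 2 subline arrays stood apart from the other arrays of their set before any gene was compared. Unscaled trimmed means were 320 for the hyper-ploid array and 343 for the modal-ploid one, against 493.8 to 494.2 in the strong lung lines. Hybridisation spike-ins are RNA added in fixed amounts to every array. Their unscaled log2 mean was 9.33 and 9.49 in the hyper-ploid and modal-ploid sublines, against 10.26 to 10.79 in the strong lung lines. Scaled, it was 9.99 and 10.21, against 10.13 to 10.83, and the groups overlapped. The 2 sublines of line 1833, on arrays of the other divisor set, had trimmed means of 349 to 356, against 492.4 to 492.9 in the strongly bone-metastatic lines. The exact permutation test of 2 arrays against 4 gave p = 0.133 for the trimmed mean and the unscaled spike-ins, which is the smallest two-sided value it allows. Array handling and subline identity cannot be told apart in this comparison. After scaling, the median log2 difference was -0.24 over the lowest tercile of genes by level, 0.14 over the middle and 0.14 over the highest.

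Between the 4175 sublines and the strong lung lines, 226 of 8967 genes tested passed an adjusted p of 0.05 (limma, Benjamini-Hochberg), or 2.52%. The count was 964 with only the 6 compared arrays in the fit and 93 with no filter on dim probe sets. The higher calls numbered 126 (1.41%) and the lower calls 100 (1.12%), and in each of the 226 both sublines lay beyond all 4 strong lung lines. Such separation was common: 42.0% of all genes tested showed it. Of the calls, 55.8% were higher, while quantile normalisation gave 129 higher and 180 lower calls (41.7% higher) and scaling to a common trimmed mean gave 95 and 144 (39.7% higher). Among the calls, 99 higher and 34 lower genes were above the dim range on all 6 arrays, and 108 higher and 45 lower were so on at least 1 array of each group. The other calls included 17 higher genes that were dim in all strong lung lines and 54 lower genes that were dim in both sublines. The lowest tercile by level held 75 of the 100 lower calls and 26 of the 126 higher calls. Leaving out 1 array at a time left 48 to 67 calls when a strong lung line was removed, 28 without the modal-ploid and 27 without the hyper-ploid subline. In bulk RNA, a lower level in every cell and a smaller share of expressing cells cannot be told apart.

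**Figure D1:**
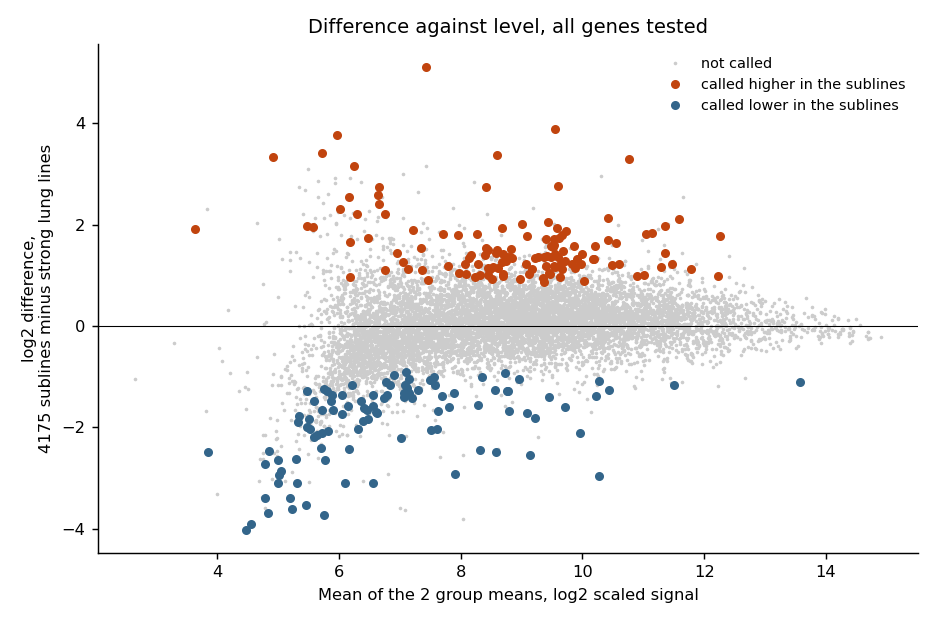
Log2 difference of 4175 sublines minus strong lung lines (vertical) against the mean log2 scaled signal of both groups (horizontal) for 8967 genes, with the 126 genes called higher and the 100 called lower in colour. Lower calls gather at low levels, where the bulk of genes also lies below 0, and higher calls spread over the middle and upper range.

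The largest rises among genes above the dim range on at least 1 array of each group were in NNMT, HTRA1 and IDH2. NNMT, which methylates nicotinamide, had scaled signals of 3458 and 2406 in the hyper-ploid and modal-ploid sublines, against 191, 124, 209 and 286 in lines 4142, 4173, 4175 and 4180. HTRA1, a secreted serine protease, had 6980.5 and 4200.4 in the sublines, against 436, 707, 589 and 519.6 in the same 4 lines. IDH2, the mitochondrial isocitrate dehydrogenase, had 1607 and 979 in the sublines, against 138, 87.1, 199 and 87.9 in the strong lung lines, of which 4173 and 4180 were dim. In all 3 genes both sublines were clear of every strong lung line, and the hyper-ploid subline was the higher of the pair. The log2 differences were 3.90 ± 0.58 (SE, adjusted p = 0.0173) for NNMT, 3.29 ± 0.41 (adjusted p = 0.012) for HTRA1 and 3.38 ± 0.41 (adjusted p = 0.012) for IDH2. The weakly lung-metastatic lines SCP21, SCP6 and SCP26 had 567, 2910.1 and 869 for NNMT and 1371, 3062 and 1115 for HTRA1, between the sublines and the strong lung lines except that SCP6 exceeded the modal-ploid subline in NNMT.

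SH3BP5, an adaptor that binds the kinase BTK and the stress kinase JNK, rose and kept its call in 11 other settings and whichever of the 6 arrays was removed. Its scaled signals were 2474 and 1650.2 in the hyper-ploid and modal-ploid sublines, against 384, 249, 281 and 287 in the strong lung lines, a log2 difference of 2.77 ± 0.26 (adjusted p = 0.00749). DDIT4, a stress-induced inhibitor of mTORC1, reached 5126 and 8076 in the sublines, against 1353, 1865, 1349 and 1413 in the strong lung lines. BDNF, a neurotrophin, had 967 and 1099 in the sublines, against 400.2, 186, 278 and 207 in the strong lung lines. Both genes separated fully, with the modal-ploid subline the higher of the pair. SLC25A1, the mitochondrial citrate carrier, rose 4.36-fold, DMBT1, a scavenger receptor cysteine-rich protein, 4.14-fold, and PCBP3, an RNA-binding protein, 6.67-fold. The call on PCBP3 was lost whichever of the 6 arrays was left out, with adjusted p between 0.0504 and 0.23. APP, the amyloid precursor protein, rose 3.92-fold on its brightest probe set, but of its 2 other kept probe sets 1 differed in sign, with log2 differences of -0.34 and 1.18.

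**Figure D2:**
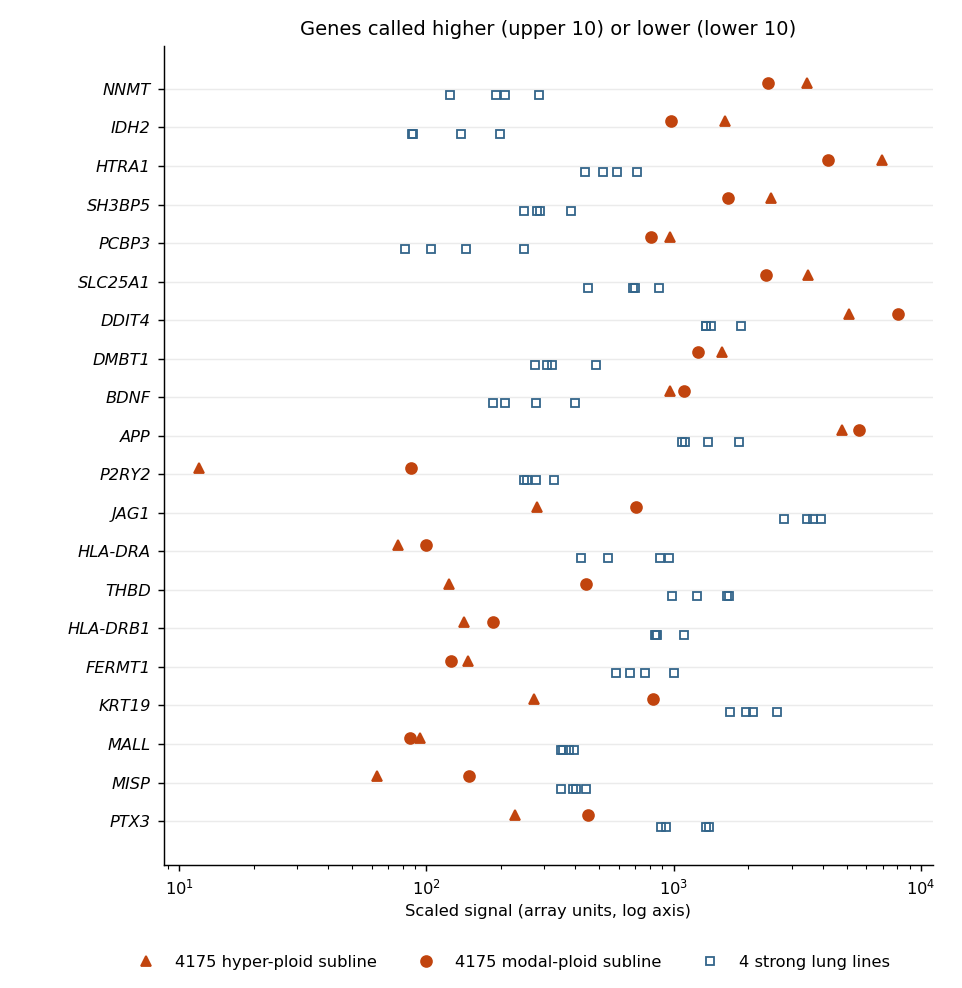
Scaled signal on a log axis of the 10 genes with the largest called rise and the 10 with the largest called fall that were above the dim range on at least 1 array of each group, with 1 point per array for the hyper-ploid subline, the modal-ploid subline and the 4 strong lung lines. No subline point falls inside the strong lung range of its gene, and P2RY2, THBD and KRT19 show the widest gaps between the 2 sublines.

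Several genes were above the dim range in the sublines and dim in every strong lung line. Their fold is given as a lower bound, against the mean 40th percentile of the strong lung arrays, which is a filter setting and not a detection limit. FGF13, an intracellular relative of the fibroblast growth factors, had 1149 and 900.3 in the hyper-ploid and modal-ploid sublines, against 40.1, 26.9, 8.14 and 86.5 in the strong lung lines, at least 10.9-fold higher (adjusted p = 0.017). COL8A1, a short-chain collagen, had 189 and 289 in the sublines, against 48.7, 43.8, 40.6 and 43.6, at least 2.50-fold higher, and it kept its call whichever array was left out. TNFRSF11B, which encodes the decoy receptor osteoprotegerin, was at least 2.78-fold higher, at 389 (hyper-ploid) and 174 (modal-ploid). MTA2, a subunit of the NuRD chromatin complex, was at least 2.62-fold higher and DDX31, an RNA helicase, at least 2.48-fold higher. The calls on TNFRSF11B and DDX31 were lost whichever of the 6 arrays was left out, and that on MTA2 was kept in 1 of these 6 fits.

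Of the falls above the dim range on at least 1 array of each group, P2RY2, JAG1 and HLA-DRA had the largest fitted differences, but P2RY2 and HLA-DRA were dim in the hyper-ploid subline, so the size of their fall is not fixed. JAG1, a ligand of Notch receptors, had scaled signals of 280.5 and 703 in the hyper-ploid and modal-ploid sublines, against 3946, 2789.9, 3467 and 3639 in the strong lung lines. Its log2 difference was -2.95 ± 0.37 (adjusted p = 0.012), and the call was lost in 1 of the 6 fits that leave out an array (highest adjusted p 0.0532). The weakly lung-metastatic lines SCP21, SCP6 and SCP26 had 482, 607 and 855, below every strong lung line. P2RY2, a receptor for extracellular nucleotides, had 12 (hyper-ploid) and 86.8 (modal-ploid), against 247, 278, 255 and 327 in the strong lung lines. THBD, the thrombomodulin gene, had 124 and 441 in the sublines, against 983, 1241, 1644 and 1670.5 in the strong lung lines. In these 3 genes the hyper-ploid subline was the lower of the pair.

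Other falls above the dim range on both sublines were in FERMT1, KRT19, MALL, PTX3 and EGFR. FERMT1, the integrin activator kindlin-1, fell 5.44-fold, with 148 and 125 in the hyper-ploid and modal-ploid sublines, against 585, 668, 1002 and 768 in the strong lung lines. KRT19, a keratin of simple epithelia, had 273 (hyper-ploid) and 827 (modal-ploid), against 2088, 2616, 1688 and 1965 in the strong lung lines, a log2 difference of -2.12 ± 0.40 (adjusted p = 0.036). MALL, a membrane raft protein related to MAL, had 93.8 and 85.4 in the sublines, against 358, 393, 377 and 349.8, and kept its call whichever array was left out. MISP, an actin-bundling protein of the mitotic spindle cortex, fell with the hyper-ploid subline dim (log2 difference -2.03). PTX3, a soluble pattern-recognition protein, fell 3.49-fold, and its call was lost whichever of the 6 arrays was left out (adjusted p 0.0637 to 0.25). EGFR, the epidermal growth factor receptor, fell 2.62-fold, with 597 and 906 in the sublines, against 2008, 1936, 2301 and 1535 in the strong lung lines (adjusted p = 0.0467), and lost the call in each of those 6 fits. Of its 4 other kept probe sets 1 differed in sign, between -1.47 and 0.11 on the log2 scale.

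Falls to the dim range carry only a bound. SERPINF1, the anti-angiogenic factor PEDF, was dim in both sublines at 23.0 and 23.6 and had 181, 189.8, 157 and 298 in the strong lung lines, at least 2.44-fold lower in the sublines (adjusted p = 0.012). RASL10A, a small GTPase of the RAS family, was at least 3.40-fold lower, MAPKBP1, a scaffold for JNK signalling, at least 2.40-fold, and OSGIN1 and MAGOHB each at least 2.17-fold. The call on RASL10A was lost whichever of the 6 arrays was left out. ZNF821, a zinc-finger gene named here after its values were seen, had the smallest adjusted p of the 4 genes that kept their call in all 6 leave-one-out fits (0.00341) and was at least 1.59-fold lower. The other 3 were SH3BP5, MALL and COL8A1, and 138 of the 226 calls were kept in none.

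MHC class II genes present extracellular antigen, and their promoters carry an X box bound by the RFX complex and a Y box bound by NF-Y, with CIITA as the coactivator. HLA-DRA had 77.1 and 99.1 in the hyper-ploid and modal-ploid sublines, against 422, 882, 539 and 955 in lines 4142, 4173, 4175 and 4180. HLA-DRB1 had 141 and 185 in the sublines, against 839, 855, 848 and 1102 in the strong lung lines. Every strong lung line exceeded both sublines by over 2-fold in both genes, and HLA-DRA was dim in the hyper-ploid subline. The log2 differences were -2.92 ± 0.62 (adjusted p = 0.0482) for HLA-DRA and -2.48 ± 0.51 (adjusted p = 0.046) for HLA-DRB1, and both calls were lost whichever of the 6 arrays was left out (adjusted p 0.0726 to 0.258 for HLA-DRA and 0.0835 to 0.247 for HLA-DRB1). The HLA-DRB1 probe set can take up RNA of near-identical DRB genes, so its level is uncertain between them. The promoter of HLA-DRB1 is shown because its X and Y boxes are the elements that the class II genes share. It is the RefSeq window from 250 bases before to 50 after the start of the gene on GRCh38.p14, chr6:32589799-32590098, minus strand, with the X box core and the nearer Y box in capitals.
HLA-DRB1: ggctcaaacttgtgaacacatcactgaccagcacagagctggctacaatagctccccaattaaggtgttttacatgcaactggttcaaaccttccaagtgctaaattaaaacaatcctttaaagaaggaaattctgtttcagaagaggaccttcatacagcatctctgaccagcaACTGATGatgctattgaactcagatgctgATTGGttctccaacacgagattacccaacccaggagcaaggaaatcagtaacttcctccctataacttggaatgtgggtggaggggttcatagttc
The X box core was searched as ACNGATG and the Y box as ATTGG, on both strands, and the 2 do not overlap each other. The X box core starts 75 bases before the gene start and the Y box in capitals 46 bases before it, and another ATTGG match lies on the opposite strand 195 bases before it. The X box core occurs in 2105 of 27305 promoter windows of this length (7.71%), the Y box in 35.7% and both in 2.81%. A match describes letters in the window and says nothing of binding in these cells.

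Other class II genes did not pass the test. HLA-DPA1 had 54.8 and 76.7 in the hyper-ploid and modal-ploid sublines, against 228, 319, 213 and 470 in the strong lung lines (adjusted p = 0.0767), and the coactivator CIITA had 61.9 and 70.9, against 129.7, 169, 134 and 232 (adjusted p = 0.0681). Both separated fully. CD74, the invariant chain, had 920 and 1342 in the sublines, against 1371, 2173, 1906 and 2725 (adjusted p = 0.188). HLA-DMA and HLA-DMB, which exchange peptides on class II molecules, overlapped between the groups. Of 22 genes tested for antigen presentation as a whole, HLA-DRA and HLA-DRB1 were the 2 calls, both lower, where 1.12% of all genes were called lower. The median log2 difference of these 22 genes was 0.03, against 0.05 over all genes tested. ITGB2, a leukocyte integrin chain, had 65.9 and 107 in the sublines, against 283, 331, 219 and 328 in the strong lung lines (adjusted p = 0.0612). The summed signal of the 21 leukocyte markers was 5388 to 6983 in the sublines and 7861 to 8442 in the strong lung lines, and its part in the class II values was not tested.

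**Figure D3:**
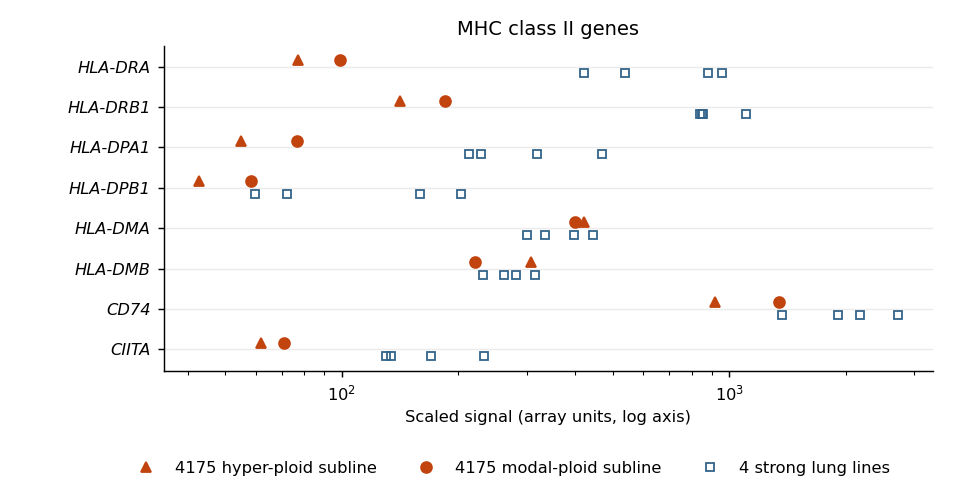
Scaled signal on a log axis of 8 MHC class II genes, with 1 point per array for the hyper-ploid subline, the modal-ploid subline and the 4 strong lung lines. The sublines lie below all strong lung lines for HLA-DRA, HLA-DRB1, HLA-DPA1, HLA-DPB1, CD74 and CIITA. They lie inside or around the range of those lines for HLA-DMA and HLA-DMB. HLA-DPA1, HLA-DPB1 and CIITA are dim in both sublines.

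Genes of cholesterol and fatty acid synthesis lay higher in the sublines as a list. Of 20 tested, 2 were called higher and none lower, at a background of 1.41% for higher calls. FASN, the fatty acid synthase, had scaled signals of 2439 and 2844 in the hyper-ploid and modal-ploid sublines, against 956, 1108, 774 and 628 in the strong lung lines (log2 difference 1.64 ± 0.25, adjusted p = 0.0176). LSS, the lanosterol synthase, had 4720.3 and 3832 in the sublines, against 972, 1739, 1279 and 944 (1.83 ± 0.40, adjusted p = 0.0497). The LSS call was lost whichever of the 6 arrays was left out, and the FASN call was kept in 3 of those 6 fits. In 15 of the 20 genes both sublines lay above all strong lung lines, where 24.9% of all genes did, and the list's median log2 difference was 0.79, against 0.05 over all genes. SCD, the stearoyl-CoA desaturase, had 7603 and 7836 in the sublines, against 747, 3242, 1063 and 1212 in the strong lung lines (adjusted p = 0.0919), and INSIG1, a sterol sensor, had 4360 and 5029 against 760.1, 2354, 1384 and 960.3 (adjusted p = 0.193). SQLE and TM7SF2 were the 2 members with a negative difference. Line 4173 was the highest of the 4 strong lung lines for SCD, INSIG1, LSS, FASN and HMGCS1. In the sublines of 1833, set against the strongly bone-metastatic lines, the same list had 7 of 20 called higher, where 5.54% of all genes were. Its median log2 difference there was 1.13, against 0.08 over all genes.

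**Figure D4:**
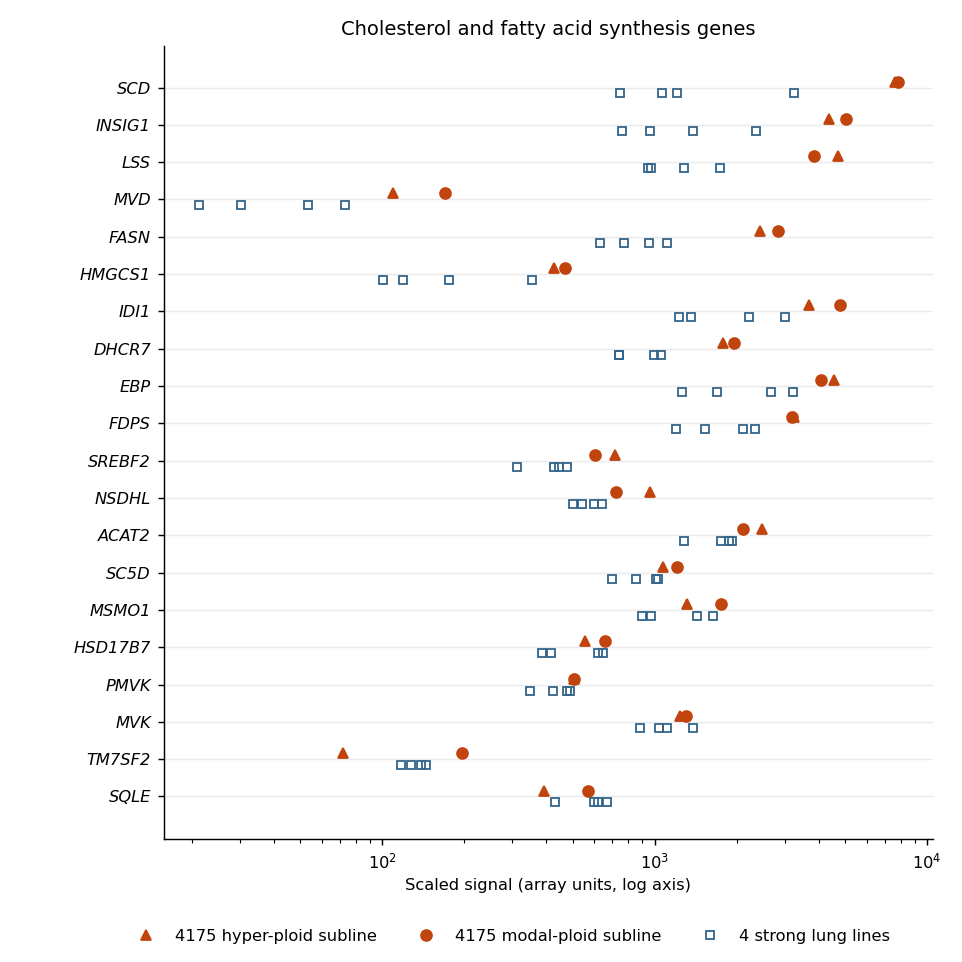
Scaled signal on a log axis of 20 cholesterol and fatty acid synthesis genes in order of the log2 difference, with 1 point per array for the hyper-ploid subline, the modal-ploid subline and the 4 strong lung lines. In 15 genes both sublines lie to the right of all strong lung lines, and the groups overlap in HSD17B7, MSMO1, MVK, SQLE and TM7SF2.

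Hypoxia and glycolysis genes gave 3 higher calls and 1 lower call among 33 tested, against 1.41% and 1.12% of all genes. HK1, the first enzyme of glycolysis, had 4541 and 5932 in the hyper-ploid and modal-ploid sublines, against 2409, 2456, 2317 and 2282 in the strong lung lines (adjusted p = 0.0356). ALDOC, an aldolase isoform, had 908 and 595, against 306, 338, 328 and 206 (adjusted p = 0.0446), and DDIT4, described above, is the third. EGLN3, an oxygen-sensing prolyl hydroxylase, was called lower, at 44.9 and 29.0 in the sublines against 63.8, 100.2, 87.5 and 105. It was dim in both sublines and above the dim range in only 2 of the 4 strong lung lines, at least 1.07-fold lower. The calls on HK1, ALDOC and EGLN3 were kept in none of the 6 leave-one-out fits, and that on DDIT4 in 1. The abundant enzymes ALDOA, ENO1, GAPDH, LDHA and TPI1 were not called, with log2 differences between -0.25 and 0.15. PGAM1 (0.16), PGK1 (0.39, both sublines above all strong lung lines) and HK2, another hexokinase (-0.37), were not called either. In the sublines of 1833 this list had 3 higher and 2 lower calls, where 5.54% and 3.47% of all genes were called. Its median log2 difference there was 0.04, against 0.39 in the 4175 comparison, and the 2 medians were not tested against each other.

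Among 34 collagens and matrix genes, 3 were called higher and 1 lower, against 1.41% and 1.12% of all genes, and the median log2 difference was 0.14. COL8A1, given above, was 1 of the higher calls. EFEMP1 (fibulin-3) had 2139 and 1242 in the hyper-ploid and modal-ploid sublines, against 288, 523, 365 and 712 in the strong lung lines, and FBLN1 (fibulin-1) had 458 and 477, against 142, 185, 253 and 148. The 4 other kept probe sets of FBLN1 ranged from -1.72 to 3.56 on the log2 scale, 1 of them opposite in sign. COL6A3, a collagen VI chain, fell, with 174 and 193 in the sublines, against 616, 396, 462 and 725 (log2 difference -1.55 ± 0.26, adjusted p = 0.0239). TGFBR1, a TGF-beta receptor, rose 2.91-fold and ASAP1, an ARF GTPase-activating protein, 3.30-fold. DUSP1, a phosphatase that turns off MAP kinases, rose 3.50-fold, with line 4142 at 1623 and the other 3 strong lung lines at 984 to 1020.1. KLF2, a transcription factor of the Kruppel-like family, fell, with 338 and 548 in the sublines, against 1452, 1206, 939 and 989 (adjusted p = 0.0374). AP1M2, an adaptor subunit for basolateral sorting, rose 2.52-fold and with KRT19 made up the 2 calls among 20 epithelial genes. The transporter ABCC3 was dim in all strong lung lines and was the 1 call among 23 NRF2 response genes, at least 1.85-fold higher. The calls on EFEMP1, ASAP1, AP1M2 and ABCC3 were kept in none of the 6 leave-one-out fits. Those on FBLN1, COL6A3 and DUSP1 were each kept in 1. Over all genes, 2.52% were called and 53.3% had a positive difference. None of 15 mesenchymal genes, 29 matrix proteases and inhibitors, 26 actin cytoskeleton genes, 24 ribosomal protein genes, 35 respiratory chain genes, 18 chaperones or 26 chromatin genes passed the test. None of 32 unfolded protein and amino acid stress genes passed either, though 27 had a positive difference and the median was 0.33 on the log2 scale.

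The lists of the cell division cycle held 1 call, where 2.52% of all genes were called. CENPA, the centromeric histone, was the 1 call among 35 mitosis genes, with 1030.0 and 1224 in the hyper-ploid and modal-ploid sublines, against 423, 540.3, 557 and 498 in the strong lung lines (adjusted p = 0.0305). The CENPA call was kept in none of the 6 leave-one-out fits. None of 34 DNA replication genes and none of 21 centrosome and tetraploidy checkpoint genes passed the test, and the median log2 differences were 0.12 and -0.09. XPC, a sensor of damaged DNA, was the 1 call among 18 p53 targets, at 2.52-fold higher. AURKA, a mitotic kinase, had 5751 and 6563 in the sublines, against 3575, 4189, 4931 and 3729 (adjusted p = 0.139), but its 2 other kept probe sets had negative differences, from -1.07 to -0.060. BIRC5 (survivin) had 3649 and 4191, against 1717, 2079.7, 2348 and 1853 (adjusted p = 0.10).

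No gene of the lung metastasis set was called, in a comparison where 2.52% of all genes were. SPARC had 641 and 741 in the hyper-ploid and modal-ploid sublines, against 454, 615, 684 and 455 in the strong lung lines, and 9.40, 5.95 and 19.8 in the weakly lung-metastatic lines SCP21, SCP6 and SCP26. MMP1 had 917 and 8538 in the sublines, a gap wider than the range of 2046 to 5266 in the strong lung lines, and the weak lines had 2.90, 5.83 and 43.2. IL13RA2 had 3674 and 5553 in the sublines, against 236, 3309, 4262 and 1517 in the strong lung lines. SPARC and MMP1 thus stood above the weak lines on both subline arrays. LOX, the collagen cross-linking oxidase, had 1115 and 1243, against 518, 298, 318 and 330.2 (adjusted p = 0.0626), and ID1, an inhibitor of differentiation, had 1235 and 1609, against 4938, 3027, 2263 and 2068 (adjusted p = 0.127). Both separated fully, among 8 of 19 members that did so, 5 higher and 3 lower, a share like the 42.0% of all genes. EREG (402 hyper-ploid and 651 modal-ploid, against 796, 771, 1183 and 1105) and ANGPTL4 (98.8 and 114, against 292, 158, 336 and 145) were also among the lower.

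IL11, a cytokine linked to bone metastasis, had 3038 and 4056 in the sublines, against 1591, 198, 337 and 400.0 in the strong lung lines (adjusted p = 0.0915). None of 8 bone metastasis genes and none of 22 inflammatory cytokine genes passed. Among 31 interferon-stimulated genes none passed, 26 had a negative difference, against 46.7% of all genes, and the median log2 difference was -0.35. Without the hyper-ploid subline that median was 0.016. IFI27, an interferon-induced protein, had a geometric mean of 101 in the sublines, against 589.7, 385, 212 and 719.9 in the strong lung lines (adjusted p = 0.0733).

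The 2 sublines differed from each other by more than 2-fold in 611 genes, or 6.81% of those tested, of which 271 had the higher signal in the hyper-ploid array and 340 the lower. With 1 array each there is no test. Of the 226 calls above, 20 were among them. MMP1 (917 hyper-ploid, 8538 modal-ploid), KYNU (531 and 2410.3), TIMP3 (618 and 3115), LPXN (352 and 1858) and BST2 (139.6 and 795) had the largest negative differences above the dim range, hyper-ploid minus modal-ploid, and BST2 restricts virus release. PADI4 (526 hyper-ploid, 84.8 modal-ploid), COL1A2 (644 and 172), BORCS6 (335 and 93.5), KCNK2 (398 and 134) and L1CAM (1397 and 487) had the largest positive ones. PRKCZ, an atypical protein kinase C gene (73.6 hyper-ploid, 396 modal-ploid), and ALDH3A1, an aldehyde dehydrogenase gene (9.45 and 475), were low in the hyper-ploid array too, while their modal-ploid values exceeded all 4 strong lung lines.

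Against the array of line 4175 alone, from which both sublines came, 659 genes differed by more than 2-fold in the same direction in both sublines (7.35%), 366 higher and 293 lower. These included 175 of the 226 calls. Line 4175 itself differed by more than 2-fold from the mean of the other 3 strong lung lines in 270 genes. The SD of the log2 difference over genes was 0.79 for the hyper-ploid subline and 0.78 for the modal-ploid subline against line 4175, 0.57 between the 2 sublines and 0.46 to 0.56 between line 4175 and each of the other 3 strong lung lines. The subline arrays also differed from that of line 4175 in unscaled signal, as given above.

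The sublines of line 1833, a bone-metastatic derivative, and the 4 strongly bone-metastatic lines are other arrays than those compared above. Their comparison was fitted on 18 arrays that include the 9 of the 4175 fit, so the estimate of spread is partly shared. Genes were filtered on those 9 arrays. There, 808 genes were called (9.01%), 497 higher (5.54%) and 311 lower (3.47%). In the same 18-array fit the 4175 comparison gave 652 calls, while the 226 calls come from the 9-array fit. In all, 57 genes were called in the same direction in both comparisons, which is 25.2% of the 4175 calls and 7.05% of the 1833 calls, 36 higher and 21 lower. Of the 226 calls, 77.0% had the same sign in the 1833 comparison, against 59.6% of all genes tested. Over genes, which are not independent, Pearson's r was 0.28 and Spearman's rho 0.25. APP (1.97 in 4175, 2.06 in 1833), SLC25A1 (2.12 and 1.74), FASN (1.64 and 2.02), FERMT1 (-2.44 and -2.26) and COL6A3 (-1.55 and -1.78) were called in both on the log2 scale. FGF13, dim in all strong lung lines, was called higher in both, and SERPINF1, dim in both 4175 sublines, lower in both. The subline arrays of both lines share the low unscaled signal given above, and the part of this in the shared calls was not tested.

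The test of the difference between the 4175 and the 1833 differences passed for 148 genes (1.65%), 78 higher and 70 lower in 4175. Of the 226 calls, 33 passed it in the direction of the call, 21 higher and 12 lower. The count was 20 without the hyper-ploid 4175 subline, 23 and 25 without the modal-ploid and hyper-ploid 1833 sublines, 64 to 107 without 1 strong lung line, and 64 to 93 without bone line 1833, 2274 or 2268, while it was 153 without the modal-ploid 4175 subline and 217 without bone line 2269. SH3BP5 differed by 2.94 on the log2 scale (2.77 in 4175 and -0.17 in 1833, adjusted p = 0.00373). IDH2 differed by 2.70, HTRA1 by 2.76 and EFEMP1 by 2.70, each higher in 4175. JAG1 (-2.41), MALL (-2.52) and KRT19 (-2.45) were lower in 4175 by this test. CADM1, a cell adhesion molecule, had 512 and 1082 in the hyper-ploid and modal-ploid 4175 sublines, against 77.2, 125, 325 and 216 in the strong lung lines. Its difference of differences was 4.31, from 2.20 in 4175 (not called, adjusted p = 0.0705) and -2.11 in 1833. WT1 and ASS1, an enzyme of arginine synthesis, were the 2 genes called in opposite directions, ASS1 at 1.35 in 4175 and -1.30 in 1833, and WT1 at 1.91 and -3.35 with all 6 arrays of the 4175 comparison dim, and at -0.53 in 4175 without the filter on dim probe sets.

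**Figure D5:**
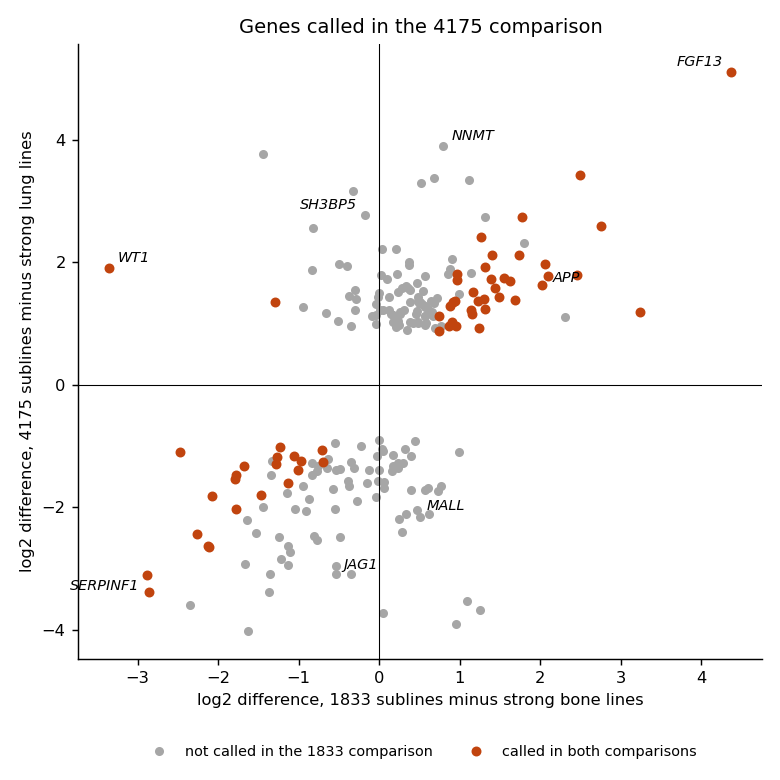
Log2 difference of 4175 sublines minus strong lung lines (vertical) against that of 1833 sublines minus strong bone lines (horizontal) for the 226 genes called in the 4175 comparison. The 57 genes called in both with 1 sign lie in the upper right and lower left, and the 2 with opposite signs, 1 of them WT1, lie in the upper left.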

How the data were processed

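Each of 19 RNA samples was hybridised to 1 Affymetrix array, per the labels' protocols. The authors deposited 1 table of 22283 probe sets whose values are linear ratios. How images were read, how arrays were normalised and what the divisors were is not given in the sources used here. These divisors were worked out from the table: on the 9 arrays of one set, 99.9% of probe sets gave signals in whole multiples of 0.1, within a tolerance of 0.01 steps, against 0.0269% after shuffling. The divisors of this set do not equal the median of the 9 arrays (0.0224% of probe sets), so levels are shown in array units and only differences were tested. Depth in counts does not apply to arrays, and their number limits the precision.

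Samples were grouped by title, and all value columns were mapped. Probe sets were named from the platform's annotation: 19071 had 1 gene symbol, 1043 several and 2169 none. Probe sets were kept where 2 or more of the 9 arrays had them above the 40th percentile of that array, and the brightest stood for its gene. Log2 ratios were fitted with limma 3.58.1 in R 4.3.3 (lmFit, eBayes), with 1 mean each for 2 sublines, 4 strong and 3 weak lung lines and no pseudocount, and p-values were adjusted by Benjamini-Hochberg over 8967 genes. The 1833 comparison and the difference between the 4175 and 1833 differences used 18 arrays. The fitting script was tested on simulated data. Tables were made in Python 3.11.15 with pandas 2.3.3. The 6 arrays compared were chosen with earlier results of these data known, as were the 31 gene lists and the rule for named genes: the 10 higher and 10 lower calls with the largest difference above that percentile on at least 1 array of each group, the 5 largest bounds each way, up to 4 calls or else the 2 largest members per list, the lung metastasis genes with PRKCZ and ALDH3A1, and the 5 largest each way for the difference of differences and between the sublines. Alternatives in scaling, filter, probe set, arrays in the fit and arrays left out were tried.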

Additional observations from a re-analysis of the deposited data

Results flagged for a closer look

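Among 124 named genes examined, 5 had 1 strong lung line far from the other 3, by the gap to its nearest neighbour as a share of the whole range. Chance alone flags about 1 group in 20. ANGPT4, an angiopoietin, was low in line 4173, at 82.7 against 105.9 to 109.8 in the other 3 lines (0.871), and DDIT4 was high in line 4173, at 1865 against 1349 to 1413 (0.857). DUSP1 was high in line 4142, at 1623 against 984 to 1020.1 (0.929). HLA-DRB1 was high in line 4180, at 1102 against 839 to 855 (0.932). TNC, the matrix protein tenascin C, was high in line 4175, at 708 against 341 to 382 (0.844).

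The test of the difference between the 4175 and 1833 differences passed for 21 named genes, given here as fitted log2 values, 4175 minus 1833. Higher in 4175 were WT1 (5.26), CADM1 (4.31), CSF2RA (3.76), RNF19A (3.48), SIK2 (3.08), SH3BP5 (2.94), HTRA1 (2.76), EFEMP1 (2.70), IDH2 (2.70), TGFBR1 (1.84) and PLAU (1.65). Such a value can rest on either comparison. CSF2RA was at 0.63 in 4175, where the groups overlapped and it was not called (adjusted p = 0.516), and at -3.13 in 1833. WT1 was dim on all 6 arrays of the 4175 comparison and RNF19A in all strong lung lines, so their sizes are not fixed. Lower in 4175 were SPANXB1 (-7.06), MALL (-2.52), KRT19 (-2.45), JAG1 (-2.41) and ITGB2 (-2.32), the last dim in the hyper-ploid subline. ANGPT4 (-5.01), SLC1A3 (-4.94), IGFBP2 (-4.86), INHBB (-4.62) and TTR (-4.11) were also lower but dim in both 4175 sublines, so these fitted values give no size. SPANXB1, a cancer-testis gene, had 214 and 392 in the hyper-ploid and modal-ploid 4175 sublines, against 5755, 679, 692 and 1140.5 in the strong lung lines, and was 4.86 higher in the 1833 sublines than in the strongly bone-metastatic lines. SLC1A3, a glutamate transporter, IGFBP2, an insulin-like growth factor binding protein, and INHBB, an activin subunit, were also called lower in the 4175 comparison.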

How the results depend on the processing

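The count of genes called between the 4175 sublines and the strong lung lines (226) was 964 with the 6 compared arrays alone, 652 with 18 arrays, 849 with the 4175-origin arrays as a random block (correlation 0.61), 93 with no filter on dim probe sets, and 27 to 67 leaving out 1 array at a time. The other 7 settings gave 160 to 309 calls. The 226 calls were all kept with 6 arrays and with the block, 194 were kept with 18 arrays, 187 under quantile normalisation, 172 under a common trimmed mean and 71 with no filter. The count for the difference of differences (148) was 239 with array medians centred, 300 under quantile normalisation, 297 under the trimmed mean, 62 with no filter and 20 to 217 leaving out 1 array at a time. Leaving out bone lines or 1833 sublines there, and the 10-array and trimmed-mean fits of the 1833 comparison (786 and 1045 calls against 808), were chosen after seeing the data. With no filter, 1620 genes differed by more than 2-fold between the hyper-ploid and modal-ploid sublines (611 with it) and 1301 between both sublines and line 4175 (659 with it). The cause of these changes was not tested, except that the fits differ in the arrays or genes they hold by construction.

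List medians moved by more than the spread between strong lung lines in these settings. The hypoxia and glycolysis median (0.39) was 0.33 with centred medians, 0.51 over probe sets, 0.32 with the block, 0.25 under quantile normalisation and 0.25 under the trimmed mean. Under the trimmed mean, actin cytoskeleton genes were at 0.0028, immediate early genes at -0.20, chaperones at -0.11, chromatin genes at -0.18, centrosome genes at -0.23 and endothelial and stromal markers at -0.49. Quantile normalisation gave -0.26 for centrosome genes, -0.49 for endothelial and stromal markers and -1.84 for red blood cell and liver markers. The block gave -0.22 for immediate early genes, -0.065 for leukocyte markers, -0.28 for endothelial and stromal markers and -1.65 for red blood cell and liver markers. The strict filter gave -0.46 and -1.47 for these last 2 lists and -0.32 for luminal markers, the median over probe sets gave -0.23 for endothelial and stromal markers, and log2(signal + 16) gave -1.61 for red blood cell and liver markers. Leaving out 1 array at a time, the medians ranged from -0.15 to 0.46 for lung metastasis genes, -0.080 to 0.70 for inflammatory cytokines, -0.68 to 0.016 for interferon-stimulated genes, 0.33 to 0.48 for hypoxia genes, 0.16 to 0.46 for YAP targets, -0.47 to 0.039 for epithelial markers, -0.22 to 0.14 for immediate early genes, -0.10 to 0.20 for chaperones, -0.081 to 0.14 for chromatin genes, -0.25 to 0.055 for centrosome genes, -0.54 to -0.22 for endothelial and stromal markers and -2.30 to -1.53 for red blood cell and liver markers.

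Of the differences of named genes, 12 changed sign when 1 array was left out and 7 in another setting. The median over probe sets gave -0.035 for AURKA, 0.048 for FSCN1, -0.089 for MAN1A1 and 0.039 for MET, the block gave 0.069 for CRYAB and -0.19 for VCAM1, and no filter gave -0.53 for WT1. Leaving out 1 array at a time, values ranged from -4.10 to 1.55 for ALDH3A1, -2.36 to 0.15 for BST2, -1.34 to 0.38 for CRYAB, -0.20 to 1.19 for CXCL1, -0.52 to 0.23 for FSCN1, -0.15 to 2.03 for KYNU, -2.36 to 0.043 for LPXN, -1.86 to 1.36 for MMP1, -1.58 to 0.85 for PRKCZ, -1.36 to 0.14 for RPLP2, -1.59 to 0.74 for TIMP3 and -0.60 to 1.31 for VCAM1. WT1 was the 1 called gene among these. Values of named genes crossed the threshold downward 228 times and upward 1 time in the leave-one-out fits, and 67 times each way in the other settings. Weak signal limits the lower calls, of which 54 rest on sublines in the dim range. No paired analysis was possible because the labels give no replicate numbers and 1 of the 4 strong lung lines has sublines, so the shared 4175 origin was fitted as a random block instead, as given above. The ploidy labels pair the 4175 with the 1833 sublines, but the metastatic lines carry no such label.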
